A study of Mus musculus with 24 samples.

Results

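The 76 genes described here encode the proteins of the cytosolic ribosome, and they were taken from the 27368 genes of the count table by symbol alone: Rpl or Rps followed by a number, with an optional a or x, together with Rpsa, Rplp0, Rplp1 and Rplp2. Of these, 46 belong to the large (60S) subunit and 30 to the small (40S) subunit, and all 76 passed the filter on low counts. RNA was sequenced from 24 whole subcutaneous tumours of the mouse squamous carcinoma line SCC7, grown in female C3H mice that were 6 to 8 weeks old, with 3 tumours in each of 8 groups. OE tumours came from SCC7 cells that overexpress miR-21-5p, and NC tumours from cells with an empty vector. In each cell line the groups were IR+olaparib, IR, olaparib and sham: IR is X-rays at 8 Gy a day for 3 days to the shielded animal's tumour, and olaparib, an inhibitor of the DNA repair enzyme PARP, was injected at 50 mg/kg daily, 2 hours ahead of the X-rays and once more the day after them. About 1000000 cells were injected per mouse and treatment began near 300 mm3, so every group, sham included, is a tumour of injected cells in a host that keeps its own stroma and immune cells. The promoter of the miR-21-5p construct and whether OE cells are 1 clone are not given in the sources used here.

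The labels can be read in 2 ways, which disagree on the group of 19 tumours and meet on 5. The groups here follow the letters of the coded identifier, by which the members were to be described. The written treatment label gives another cell line for 8 tumours, another radiation state for 8 and another olaparib state for 16. An earlier look at p53 targets in these data favoured the coded letters, so the p-values for radiation are not independent of that choice.

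Ribosomal proteins are made in near equal numbers, 1 of each per ribosome with few exceptions, and their mRNAs are among the most abundant in a growing cell. In mammals most of these mRNAs begin with a C and a run of pyrimidines, the TOP (terminal oligopyrimidine) motif, through which mTOR signalling controls their translation and, with the RNA-binding protein Larp1, their stability. Ribosomal proteins made in excess of rRNA are degraded or act outside the ribosome, as when Rpl5 and Rpl11 bind Mdm2, the ubiquitin ligase of p53.

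The genes lie on 19 chromosomes, with 14 of them on chromosome 7, and share features of their promoters. RefSeq promoters on build GRCm38.p6 were at hand for 56 of them. The letters CTTTC or CTTTT on the sense strand, within 20 bases before to 50 bases after an annotated start, were found in 67.9% of those 56 genes and in 17.3% of 27025 genes of all kinds. The letters CGGAAG, the core bound by ETS factors such as GABP, stood on either strand of the 300-base promoter of 69.6% of the 56 and of 18.8% of all genes. A gene with several annotated starts was counted once if any of them held the letters.

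Shown next are the first bases of 9 genes, since the pyrimidine run is the feature that this family is known by: 6 with the longest runs among the genes that radiation moved most and least, and 3 with hardly any run at the annotated start. Each stretch has 10 bases before the annotated start and 20 from it, 5′ to 3′, and capitals mark the longest run of pyrimidines that begins with C. For Rps9 the start shown lies downstream of the first base annotated for the gene. The first 5 are from the end of the family that was lowest in irradiated tumours relative to unirradiated ones, and the last 4 from the other end.
Rps18, chr17:33955646-33955675, minus strand: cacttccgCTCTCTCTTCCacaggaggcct
Rpl14, chr9:120571507-120571536, plus strand: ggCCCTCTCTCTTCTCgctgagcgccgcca
Rpl39, chrX:37085203-37085232, minus strand: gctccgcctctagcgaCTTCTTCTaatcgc
Rpsa, chr9:120127756-120127785, plus strand: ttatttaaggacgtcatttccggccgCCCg
Rpl41, chr10:128549149-128549178, minus strand: gggccggCTCggaagtgacgacaccgagca
Rps27, chr3:90213629-90213658, minus strand: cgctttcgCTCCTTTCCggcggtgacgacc
Rps9, chr7:3704031-3704060, plus strand: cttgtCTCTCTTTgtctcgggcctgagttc
Rps24, chr14:24490668-24490697, plus strand: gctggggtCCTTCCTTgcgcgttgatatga
Rpl37a, chr1:72711250-72711279, plus strand: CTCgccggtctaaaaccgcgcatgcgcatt

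Runs of 8 or more pyrimidines stood at both ends of the family: 3 of the 8 genes with a sequence among the 10 lowest in irradiated tumours, and 3 of the 7 among the 10 highest. Annotated starts can be off by some bases, so a missing run says only that these letters are not in this window. The median log2 fold change for radiation was -0.43 in the 38 genes with CTTTC or CTTTT and -0.46 in the 18 without, and it was -0.44 in the 39 genes with CGGAAG and -0.44 in the 17 without.

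Depth was even, from 37099055 to 40004502 counted reads a tumour. No pair of replicates differed by as little as sampling noise (lowest chi-square per gene 14.43). This check bears only on the same library counted again and cannot tell pieces of the same tumour from separate tumours. Each tumour was counted as its own sample by its identifier. Nothing in the labels pairs tumours. Each edgeR p-value of the main fit sets a difference against the spread between tumours, estimated over all 8 groups. NC sham 3 stood apart, with the highest summed erythroid and T cell marker levels and the lowest fibroblast and endothelial ones. NC IR 3 held the most skeletal muscle mRNA, 15480 CPM (counts per 1000000 reads, TMM-scaled) over 9 marker genes, against a median of 265.3 CPM in the 12 irradiated tumours. OE IR+olaparib 3 held 126800 CPM of 7 fibroblast genes, against an irradiated median of 4915 CPM. The squamous markers were sparse in all 24 tumours: Krt14 averaged 16.6 CPM and Krt5 12.8 CPM, while the integrin subunits Itgb4 and Itga6 averaged 282 and 147 CPM.

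Irradiated tumours held less ribosomal protein mRNA than unirradiated ones. The 76 genes took 3.069% to 6.097% of all counts in the 12 irradiated tumours, with a median of 4.25%, against 4.963% to 9.241% with a median of 5.732% in the 12 unirradiated tumours. The highest of the unirradiated values was NC sham 3, and without it that range ended at 6.545%. The highest of the irradiated values belonged to OE IR 2, which alone among irradiated tumours was above the unirradiated median. In bulk tissue, fewer cells that make much ribosome and less of these mRNAs per cell cannot be told apart.

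By group, the summed level of the 76 genes was 43180 ± 4992 CPM in OE IR+olaparib, 50640 ± 9811 in OE IR, 57020 ± 8387 in OE olaparib and 57140 ± 3757 CPM in OE sham tumours (SD, n = 3 each). In NC tumours it was 40480 ± 788.9 CPM with IR+olaparib, 40320 ± 1413 with IR, 51660 ± 2900 with olaparib and 72840 ± 29520 CPM with sham treatment (SD, n = 3 each). The 6 irradiated NC tumours lay within a narrow band, 39025 to 41826 CPM. The wide spread in NC sham came from 1 tumour: its members had 60336, 51635 and 106558 CPM.

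**Figure D1:**
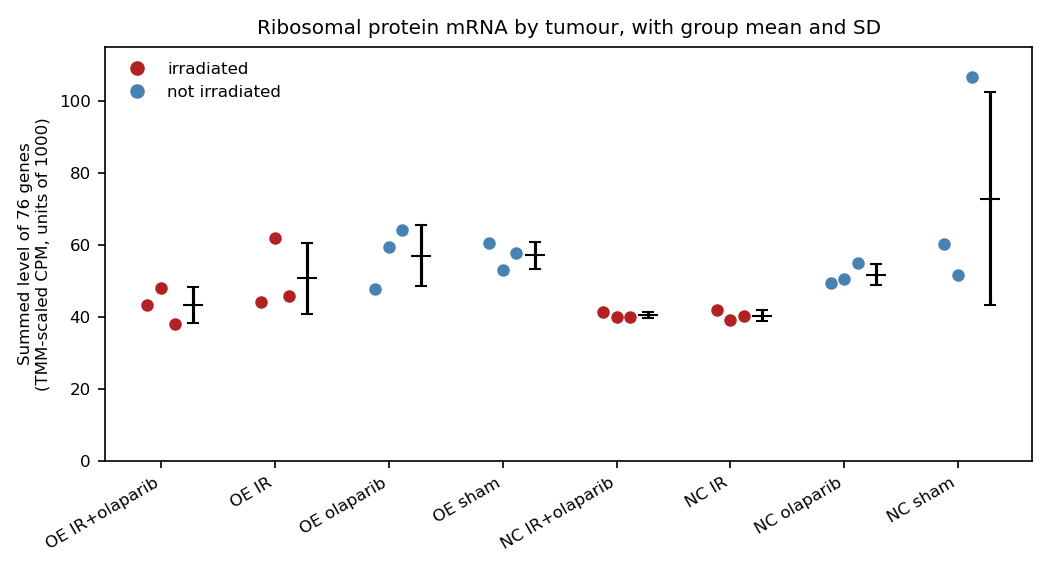
Summed TMM-scaled CPM, in units of 1000, of the 76 ribosomal protein genes in each tumour, 1 point a tumour, by group on the horizontal axis; bars to the right of the points are the group mean and SD (n = 3). The 6 irradiated NC tumours lie between 39025 and 41826 CPM, OE IR 2 (61928 CPM) is above the other irradiated tumours, and NC sham 3 (106558 CPM) is above all.

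The genes varied together from tumour to tumour. The SD of log2 CPM over the 24 tumours had a median of 0.354 over the genes, and it dropped to 0.111 once each tumour's median over the family was taken off. That SD was smaller for 76 of 76 genes. NC sham 3 was the highest of the 24 tumours for all 76 genes, with a median of 1.126 log2 units above each gene's own median. OE IR 2 was the highest irradiated tumour for all 76 as well, at a median of 0.367. The lowest tumour was OE IR+olaparib 3 for 31 genes, and NC IR 1 and NC IR 2 for 15 genes each. In 11 of 12 irradiated tumours the median gene was below its own median over the series, against 1 of 12 unirradiated tumours, OE olaparib 1.

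**Figure D2:**
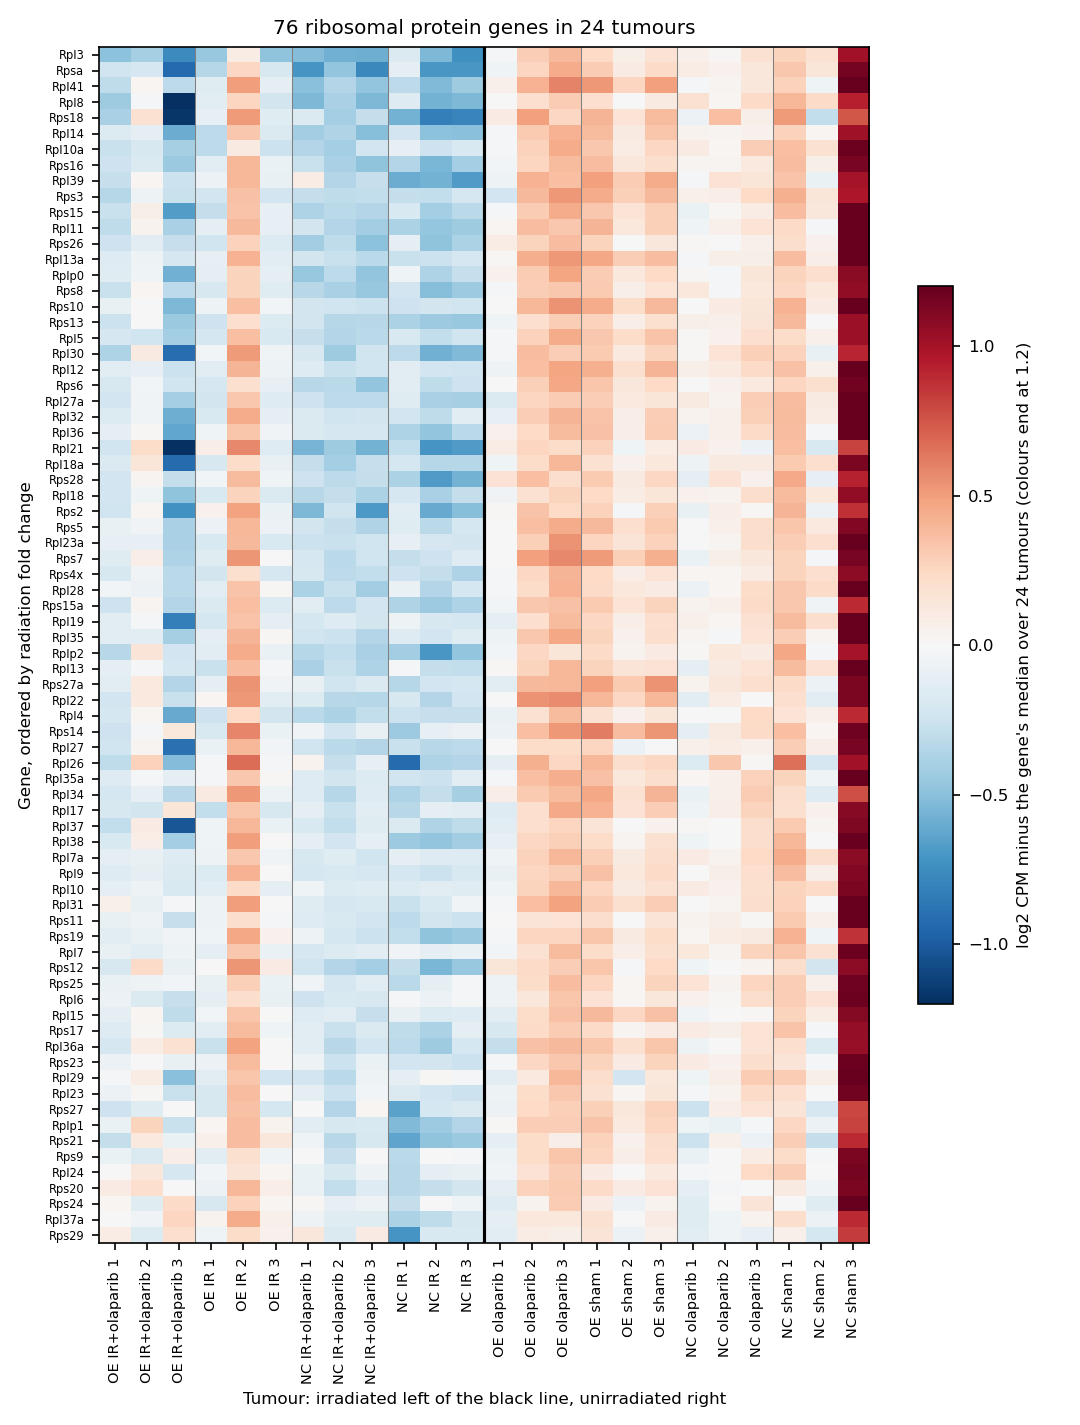
Each row is 1 of the 76 genes and each column 1 of the 24 tumours; colour gives log2 CPM minus the gene's median over the tumours, with irradiated tumours left of the black line and genes ordered by their radiation fold change, lowest at the top. NC sham 3 is red in every row (median 1.126), and OE IR 2 (median 0.367) is red among the irradiated tumours. OE IR+olaparib 3 holds the darkest blue cells (Rpl8, 1.302 log2 units below its median).

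Marker lists of other cells moved with radiation too. Of 10 proliferation genes, 8 were lower in irradiated tumours and none higher (median log2 fold change -1.04); their summed level was 63.78 to 1694 CPM in the 12 irradiated tumours, against 1652 to 1957 CPM in the 12 unirradiated ones. OE IR+olaparib 3 had the 63.78 and NC IR 1 the 1694, which lay inside the unirradiated range. Of 8 tested T cell genes 5 were lower and none higher, with sums of 24.71 to 157.4 CPM in irradiated tumours and 45.18 to 351 CPM in unirradiated ones. Higher in irradiated tumours were 7 of 10 macrophage genes (2941 to 23170 CPM against 5112 to 13660 CPM unirradiated), 6 of 6 tested neutrophil genes (26.57 to 451.5 against 20.67 to 50.4 CPM) and 7 of 9 muscle genes (46.08 to 15480 against 22.31 to 1355 CPM). NC IR 1 also had the lowest irradiated macrophage and neutrophil sums, 2941 and 26.57 CPM. The single contrasts of the muscle list differed too. For radiation alone its median was 6.86 in NC and 0.24 in OE tumours. Under olaparib it was -0.07 in NC and 3.14 in OE tumours. NC IR 3 held the 15480 CPM. Over all tested genes 21.7% rose and 17.5% fell. Nearer to that share, 2 of 7 fibroblast, 2 of 5 endothelial, 2 of 5 adipocyte and 2 of 10 squamous genes were higher and none lower. The median fibroblast sum was 4915 CPM in irradiated and 5487 CPM in unirradiated tumours. The squamous list, which marks the injected cells' origin, had 10 of 10 estimates above 0, at a median of 2.54, and sums of 222.2 to 893.3 CPM in irradiated against 321.1 to 509.8 CPM in unirradiated tumours. The single contrasts of this list differed in direction. For radiation alone its median was -2.70 in OE tumours, with 7 of 10 below 0, and 1.19 in NC tumours. Under olaparib it was 6.89 in OE and 3.38 in NC tumours. None of 4 B cell and 3 erythroid genes passed the test. Their part in the ribosomal protein result was not tested.

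The averaged radiation contrast set the 12 irradiated tumours against the 12 unirradiated ones, each cell line and olaparib state weighing the same. In it 72 of the 76 genes fell, none rose, and 76 of 76 estimates were below 0 (edgeR quasi-likelihood test, Benjamini-Hochberg adjusted p below 0.05 over 16560 genes). Across all tested genes 17.5% fell and 21.7% rose. The median log2 fold change was -0.44, with a range of -0.71 to -0.11, against a median of 0.04 over all genes. The 2 subunits had close medians: 45 of 46 genes of the 60S subunit fell (median -0.44), and 27 of 30 of the 40S subunit (median -0.45). In the 16 tumours whose 2 labels give the same radiation state, 70 genes fell, at a median of -0.63. Without NC sham 3, NC IR 3 and OE IR+olaparib 3, 68 genes were called and the median was -0.32. With the written labels as groups none was called at an adjusted p below 0.05 (smallest 0.0501, 73 at an unadjusted p below 0.05), though 76 of 76 estimates stayed below 0, at a median of -0.38; by that reading 1 gene of 16560 was called at all.

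**Figure D3:**
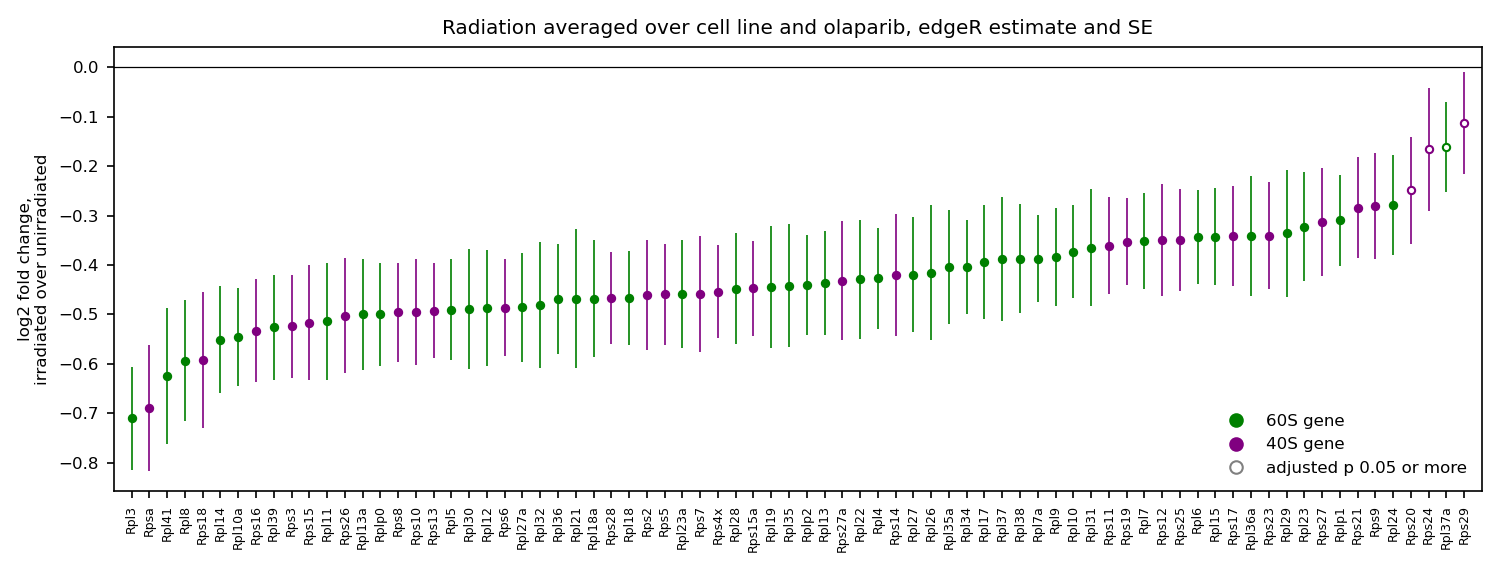
log2 fold change of each gene, irradiated over unirradiated tumours, averaged over cell line and olaparib (edgeR estimate, bars are SE), from the lowest on the left to the highest on the right; colour gives the subunit and open points an adjusted p of 0.05 or more. All 76 points lie below 0, from -0.71 for Rpl3 to -0.11 for Rps29, and the 4 open points are Rps20, Rps24, Rpl37a and Rps29.

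Among the proteins at the working centres of the large subunit, Rpl3 (chr15:80077781-80083406 on GRCm38.p6, 60S), which reaches into the peptidyl transferase centre, fell furthest. Its level was 609.5, 886.5 and 596.9 CPM in OE IR tumours, 593.8, 635.8 and 491.4 in OE IR+olaparib, 740, 575.8 and 500.8 in NC IR, and 582.7, 559.2 and 557 CPM in NC IR+olaparib tumours. The unirradiated tumours had 988.7, 875.9 and 939.8 CPM in OE sham, 829.9, 1024 and 1092 in OE olaparib, 1003, 946.6 and 1675 in NC sham, and 872.1, 841.4 and 948.3 CPM in NC olaparib. Of the irradiated tumours 11 were below every unirradiated one, and OE IR 2 was the exception. The log2 fold change was -0.71 (SE 0.10, edgeR adjusted p = 0.000124), and it stayed between -0.76 and -0.66 as each tumour was left out.

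Other large-subunit genes at this end followed. Rpl8 (chr15:76904071-76906318), which also lines the peptidyl transferase region, had a lowest, median and highest level of 644.8, 1200 and 1902 CPM in irradiated tumours, against 1583, 1830 and 3039 CPM in unirradiated ones (log2 fold change -0.59, SE 0.12, edgeR adjusted p = 0.00149). The 644.8 was OE IR+olaparib 3, and OE IR 2 was the only irradiated tumour inside the unirradiated range. Rpl41 (chr10:128548110-128549168), the shortest ribosomal protein, had 744.3, 860.2 and 1513 CPM against 1033, 1292 and 2899 CPM, a log2 fold change of -0.62 (SE 0.14, edgeR adjusted p = 0.00223). Rpl39, a small protein of the exit tunnel, had 257.5, 343.4 and 544.6 CPM in irradiated and 392, 517.9 and 826.2 CPM in unirradiated tumours. Its log2 fold change was -0.53, close to those of Rpl14 (-0.55) and of Rpl10a (-0.55), a protein of the L1 stalk that guides the spent tRNA out.

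In the small subunit Rpsa (chr9:120127766-120132369), a 40S protein also known as the laminin receptor, fell most. It had 1099, 1577 and 2481 CPM as the lowest, median and highest of the irradiated tumours, and 2018, 2386 and 4625 CPM in unirradiated tumours. The groups overlapped through 1 tumour, OE IR 2, and the log2 fold change was -0.69 (SE 0.13, edgeR adjusted p = 0.000706). Rps3, which helps unwind mRNA at the entry channel, had 869.4, 911.3 and 1407 CPM against 938.7, 1394 and 2160 CPM (log2 fold change -0.52), and 8 irradiated tumours were below every unirradiated one. Rps16, near the tRNA of the P site, had a log2 fold change of -0.53.

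Rps18 (chr17:33951998-33955665, small-subunit head) had a log2 fold change of -0.59 (SE 0.14, edgeR adjusted p = 0.0032), but its counts may be split with a copy. It had the largest spread relative to the family, an SD of 0.284 log2 units. The row Rps18-ps4, by its name a pseudogene of it, took 12.2% to 50% of the reads of both rows in irradiated tumours and 11.3% to 43.1% in unirradiated ones. In NC IR tumours Rps18 had 3023, 2316 and 2268 reads and Rps18-ps4 had 2574, 2256 and 2266. In NC sham tumours Rps18 had 5833, 3365 and 5834 reads and Rps18-ps4 had 843, 1464 and 4419. The 2 rows summed to 5597, 4572 and 4534 reads in NC IR and to 6676, 4829 and 10253 in NC sham tumours. The read counts of Rps18 alone did not overlap between these groups, and the sums did.

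At the other end, 4 genes did not pass the test. Rps29 (chr12:69157722-69159186), a zinc-binding protein of the 40S head, had 310.7, 506.4 and 591.7 CPM as the lowest, median and highest of irradiated tumours, and 437.6, 509.5 and 909.1 CPM in unirradiated ones. The medians were close and only NC IR 1 was below the unirradiated range (log2 fold change -0.11, SE 0.10, edgeR adjusted p = 0.395). Rps24 (chr14:24490678-24496960), like Rps29 mutated in some patients with Diamond-Blackfan anaemia, had 566.4, 679.8 and 837.7 CPM against 622.9, 701.5 and 1596 CPM (log2 fold change -0.17, SE 0.13, edgeR adjusted p = 0.302). Rpl37a (chr1:72711260-72713813) had 276.1, 346.4 and 488.2 CPM in irradiated and 325.8, 377.3 and 668.9 CPM in unirradiated tumours (-0.16, adjusted p = 0.164 by edgeR). Rps20 (chr4:3831584-3835655) had 482.7, 580.4 and 801.4 CPM and 562.3, 654.9 and 1331 CPM (-0.25, adjusted p = 0.076 by edgeR). The 6 genes next to them, all of which fell, were Rpl24 (-0.28), which forms a bridge between the subunits, Rps9 (-0.28), Rps21 (-0.28), Rplp1 (-0.31), Rps27 (-0.31) and Rpl23 (-0.32). Of these, Rps9 lost its call in 14 of the 24 fits that left out 1 tumour, Rpl24 in 7, Rps21 in 5, Rps27 in 2 and Rpl23 in 1.

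**Figure D4:**
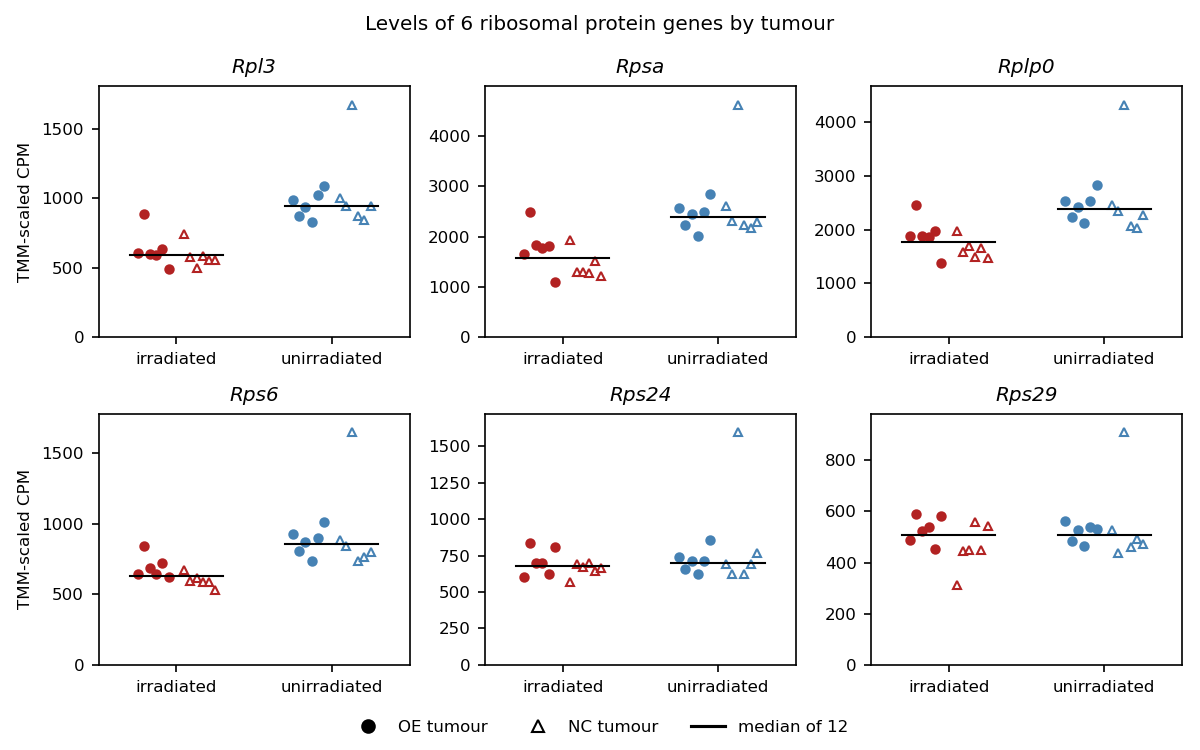
TMM-scaled CPM of 6 genes, 1 point a tumour, irradiated tumours left of unirradiated ones in each panel; circles are OE and triangles NC tumours, and the line is the median of 12. For Rpl3, Rpsa, Rplp0 and Rps6, 11 irradiated tumours lie below every unirradiated one; for Rps24 and Rps29 the medians (679.8 against 701.5 CPM, and 506.4 against 509.5 CPM) are close and the groups overlap.

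The mRNAs of the proteins that bind Mdm2 when free of the ribosome fell with the rest. Rpl5 had 673.1, 755.4 and 1142 CPM as the lowest, median and highest of irradiated tumours, against 880.7, 1039 and 1825 CPM in unirradiated ones, a log2 fold change of -0.49 (SE 0.10, edgeR adjusted p = 0.00159). For Rpl11 the levels were 414.8, 457.9 and 751.2 CPM against 554, 658.1 and 1364 CPM, and the log2 fold change was -0.51 (SE 0.12, edgeR adjusted p = 0.00303). Rpl26, which also binds the p53 mRNA, stood at -0.42 and Rpl23 at -0.32. Mdm2 itself rose by 1.17 (SE 0.19) and the p53 target Cdkn1a by 1.36 log2 units (SE 0.12), with edgeR adjusted p of 0.00029 and 1.6e-06; they belong to the targets behind the choice of labels.

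The genes of the P stalk, which recruits the elongation factors, fell. Rplp0, its base, had 1373, 1772 and 2460 CPM in irradiated and 2029, 2391 and 4328 CPM in unirradiated tumours (log2 fold change -0.50). Rplp2 stood at -0.44 and Rplp1 at -0.31, and each of the 3 was called. Rps6, the substrate of S6 kinase downstream of mTOR, had 531.6, 632 and 839.9 CPM against 736.8, 855.4 and 1648 CPM (log2 fold change -0.49), with 11 irradiated tumours below every unirradiated one.

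The other genes chosen for their roles fell as well. Rpl13a, known for silencing inflammatory mRNAs in human monocytic cells, stood at -0.50; Rps4x, the X-linked 40S gene, at -0.45; and Rps27a, made as a fusion to ubiquitin, at -0.43. Rpl22, needed for T cell development in mice, stood at -0.43, Rpl38, needed in mice for translation of Hox mRNAs, at -0.39, Rpl10, placed late in 60S assembly, at -0.37, and Rps19, the gene most often mutated in Diamond-Blackfan anaemia, at -0.35. Not 1 of the 76 genes separated all 12 irradiated from all 12 unirradiated tumours, as 0.429% of all genes did by lying lower. The number of irradiated tumours below every unirradiated one ran from 1 (Rps29) to 11, with a median of 9 over the genes.

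A second fit took the family's own total as the library size, and so asked which genes changed their share of it. Relative to that total 9 genes differed, 3 lower and 6 higher in irradiated tumours. Over all tested genes 2.42% were lower and 54.8% higher on this scale, since the family as a whole had fallen. The adjustment ran over all 16560 tested genes, and with so many called it corrected only weakly within the family. Unadjusted edgeR p was 0.027 for Rps9, 0.0172 for Rpl41 and 0.0115 for Rpl24, at adjusted p of 0.0476, 0.0329 and 0.0238. No adjustment over the family alone is given, so the calls of these genes are uncertain. Rpl3 took a median of 1.385% of the family in irradiated tumours (range 1.249% to 1.769%), against 1.685% (1.572% to 1.833%) in unirradiated ones, a log2 difference of -0.28 (SE 0.06, edgeR adjusted p = 0.0015). Rpsa took 3.749% against 4.275% (-0.25, edgeR adjusted p = 0.00898) and Rpl41 2.077% against 2.382% (-0.17, edgeR adjusted p = 0.0329). For Rpl3 and for Rpsa 11 irradiated tumours were below every unirradiated one. NC IR 1 was the exception for both. Its Rpsa share, 4.632%, was above the whole unirradiated range of 4.178% to 4.496%.

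The 3 largest gains in share were those of Rps29, Rps24 and Rpl37a. Rps29 had a median share of 1.135% in irradiated tumours (0.7427% to 1.528%), against 0.9114% (0.8303% to 0.9736%) in unirradiated ones, a log2 difference of 0.34 (SE 0.09, edgeR adjusted p = 0.00348). Rps24 had 1.617% against 1.249% (0.30, edgeR adjusted p = 0.00438), and Rpl37a 0.8114% against 0.6688% (0.29, edgeR adjusted p = 0.00279), with 11 irradiated tumours above every unirradiated one. The highest irradiated share of each belonged to OE IR+olaparib 3. Rps20 (0.20), Rps9 (0.18) and Rpl24 (0.17) made up the 6. Leaving out each tumour in turn, again with the adjustment over all tested genes, Rpl41 was called in 13 and Rps9 in 5 of 24 fits. The other 7 genes were called in 24 of 24.

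Within each cell line, radiation alone was set against sham. In NC tumours 68 of 76 genes fell and none rose, at a median log2 fold change of -0.85, against a background of 5.4% of genes lower and 4.61% higher. The lowest were Rpl41 (-1.12, SE 0.28), Rps18 (-1.11, SE 0.28) and Rpl39 (-1.11, SE 0.22), and the called genes nearest to 0 were Rpl15 (-0.69), Rpl34 (-0.68) and Rpl6 (-0.65), at edgeR adjusted p of 0.0154 to 0.0409. For 72 genes the 3 NC IR tumours lay below all 3 NC sham tumours, as did 14.8% of all genes. The calls rest on single tumours: none was left without NC sham 3 (median -0.47) or without NC IR 3 (median -0.89), 4 without NC IR 2 and 34 without NC sham 1. A fit on these 6 tumours alone called none, at a median of -0.86, and the written labels gave none, at a median of -0.26.

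In OE tumours radiation alone moved no gene past the threshold, nor was any below an unadjusted p of 0.05 in edgeR; DESeq2 called none and limma with sample weights 34. The background in edgeR was 0.0664% lower and 0.181% higher. The median log2 fold change was -0.16, and 67 of 76 estimates were below 0; the median was -0.32 without OE IR 2 and -0.07 without OE IR 1. The 3 smallest p-values belonged to Rpl3 (-0.42, SE 0.21, edgeR adjusted p = 0.352), Rps3 (-0.39) and Rpl10a (-0.36). No gene separated OE IR from OE sham tumours, where 17.8% of all genes did by lying lower, and for each of the 76 OE IR 2 was above at least 1 sham tumour.

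Whether radiation acted differently in the 2 cell lines was tested directly, as the effect in OE tumours minus the effect in NC tumours, averaged over olaparib. No gene differed (edgeR; 8 at an unadjusted p below 0.05, none by DESeq2; background 0.00604% higher and 0% lower). The estimate was above 0 for 76 of 76 genes, with a median of 0.33, and 0.15 without the 3 tumours of unlike composition. Rplp2 (0.61, SE 0.20, edgeR adjusted p = 0.269), Rpl37a (0.44) and Rps19 (0.40) had the smallest p. Rplp2 averaged 523.4 ± 121.9 CPM in OE IR and 532.1 ± 37.04 CPM in OE sham tumours, and 339 ± 33.55 CPM in NC IR and 709.9 ± 247 CPM in NC sham tumours (SD, n = 3 each). NC sham 3 had 972.7 CPM. The family's median log2 fold change for radiation was -0.16 in OE and -0.85 in NC tumours without olaparib. With olaparib the medians were closer and in the other order, -0.40 in OE and -0.32 in NC tumours. NC sham 3 enters the NC contrast without olaparib. Rplp2 averaged 448.6 ± 82.9 CPM in OE IR+olaparib and 532.1 ± 51.08 CPM in OE olaparib tumours. In NC IR+olaparib and NC olaparib tumours it averaged 385.2 ± 12.25 and 516.5 ± 21.37 CPM (SD, n = 3 each).

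Under olaparib, radiation was tested in tumours that all received the drug. In NC tumours no gene passed in edgeR (12 at an unadjusted p below 0.05, 2 by DESeq2; background 0.634% lower and 0.821% higher), at a median log2 fold change of -0.32 with 75 of 76 below 0. Rpl3 (-0.65, SE 0.21, edgeR adjusted p = 0.0955), Rpsa (-0.74, SE 0.25) and Rpl8 (-0.64, SE 0.24) came nearest. For 66 genes the 3 NC IR+olaparib tumours lay below the 3 NC olaparib tumours, against 17.6% of all genes. The fit on these 6 tumours alone called 20. With the written labels the median was -0.72, and 76 genes were at an unadjusted p below 0.05 but none passed.

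In OE tumours given olaparib 1 gene fell, Rpl3, by 0.78 on the log2 scale (SE 0.21, edgeR adjusted p = 0.0365; background 1.37% lower and 5.4% higher). It averaged 573.7 ± 74.3 CPM in OE IR+olaparib and 981.7 ± 135.8 CPM in OE olaparib tumours (SD, n = 3 each). The family's median was -0.40, and 31 genes lay lower in all 3 OE IR+olaparib tumours than in the OE olaparib tumours, against 13.8% of all genes. The call was lost without OE IR+olaparib 3 or any 1 of the 3 OE olaparib tumours, and 7 genes were called without OE IR+olaparib 2.

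The combination of radiation and olaparib was set against sham, a comparison that shares its sham tumours with radiation alone. In NC tumours 57 genes fell and none rose (background 7.57% lower and 5.27% higher), at a median log2 fold change of -0.81. The lowest were Rpsa (-1.25, SE 0.26), Rpl41 (-1.14, SE 0.28) and Rpl28 (-1.10, SE 0.23), and those called nearest to 0 were Rps15a (-0.67), Rpl39 (-0.66) and Rps19 (-0.63). Without NC sham 3 the median was -0.48 and 2 genes were called; without NC IR+olaparib 1 or 3 there were 1 and 2. With the written labels the median was -0.13 and none was called. For 65 genes the 3 NC IR+olaparib tumours lay below the 3 NC sham tumours, as did 20% of all genes, while 21.3% of all genes lay above. In OE tumours Rpl3 alone fell, by 0.70 on the log2 scale (SE 0.21, edgeR adjusted p = 0.0408; background 2.98% lower and 6.83% higher), at a family median of -0.39, with 57 genes not overlapping, against 16.6% of all genes. That call was lost in 11 of the 24 fits that left out 1 tumour, and 13 genes were called without NC sham 3, which enters the shared estimate of spread.

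Olaparib, averaged over radiation and cell line, moved no gene in edgeR or DESeq2 (7 at an unadjusted p below 0.05 in edgeR; background 0% in each direction). The estimates were below 0 for 76 of 76 genes, at a median of -0.19, and -0.06 without the 3 tumours of unlike composition; with the written labels the median was 0.12. Rpl15 (-0.25, SE 0.10, edgeR adjusted p = 0.64), Rpl6 (-0.21) and Rpl28 (-0.25) had the smallest p. The difference between the radiation effect with olaparib and without it was not past the threshold for any gene (edgeR, none at an unadjusted p below 0.05, none by DESeq2; background 0%), at a median of 0.15 with 69 of 76 estimates above 0. The direction was not stable: with the written labels the median was -0.38, 76 of 76 were below 0 and 12 were at an unadjusted p below 0.05, and without NC sham 3 the median was -0.06. Rps29 (0.39, SE 0.21, edgeR adjusted p = 0.987), Rpl39 (0.37) and Rps21 (0.32) came first by p.

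OE tumours, averaged over the 4 treatments, did not differ from NC tumours by any gene (edgeR, 1 at an unadjusted p below 0.05, none by DESeq2, 13 by limma with sample weights; background 0.236% lower and 0.217% higher). The median was 0.06. Rplp1 (0.22, SE 0.09, edgeR adjusted p = 0.259), Rps12 (0.24) and Rpl34 (0.19) had the smallest p, and both Rps12 and Rpl34 have pseudogene rows in the table. Without the 3 tumours of unlike composition the median was 0.18 and 6 genes were called.

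Other parts of the machinery for making ribosomes were read in the same averaged radiation contrast, where 17.5% of all genes fell and 21.7% rose. Of the 4 remaining genes that code for a cytosolic ribosome component, 4 fell, among them Rps3a1 (-0.47), Rack1 (-0.47), a scaffold on the 40S head, and Fau (-0.30), a fusion with Rps30. Of 17 other mRNAs known to carry a TOP motif, translation factors for the most part, 16 fell (median -0.43), with Hnrnpa1 at -1.06, the initiation factor Eif4b at -0.62 and Eif3h at -0.56. Of 26 further initiation factors 11 fell and none rose (median -0.22), among them the helicase Eif4a1 (-0.53), Eif4h (-0.36) and Eif3c (-0.43).

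Genes of ribosome assembly and of rRNA synthesis were measured by their mRNA alone. Of 39 assembly genes 22 fell and none rose (median -0.36), led by the nucleolar proteins Fbl (-0.63), Ncl (-0.53) and Npm1 (-0.61). For radiation alone 3 assembly genes fell in NC tumours (median -0.54) and 0 in OE tumours (median -0.02). Under olaparib 0 were called in either line, at a median of -0.42 in each. The lowest assembly sum, 1843 CPM, was that of OE IR+olaparib 3. The lists outside the family were not refitted with tumours left out. Of 14 genes of RNA polymerase I and its factors 8 fell and 1 rose (median -0.31), with the subunit Polr1c at -0.44, Ubtf at -0.40 and Taf1b at -0.35. Of 6 dedicated chaperones 3 fell (median -0.27), Bccip (-0.29), Pdcd2l (-0.25) and Tsr2 (-0.22). Among 9 host genes of small nucleolar RNAs 4 fell and 1 rose, with Snhg3 at -0.58, Snhg5 at -0.57 and Eif4a2 at 0.47. Of 78 genes of the mitochondrial ribosome, a separate machine, 33 fell and none rose (median -0.22), among them Mrps35 (-0.55), Mrpl58 (-0.44) and Mrpl48 (-0.38).

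Paralogues and regulators went both ways. Of 7 tested paralogues 2 fell, Rpl36al (-0.29) and Rpl22l1 (-0.50), and 2 rose, Rpl39l (2.10, at a mean of 0.846 CPM) and the muscle paralogue Rpl3l (2.56, at 3.41 CPM; its tissue's markers rose too). Of 23 regulators of mTOR and Myc 7 rose and 4 fell, where 21.7% of all tested genes rose and 17.5% fell. The list had a median of 0.07, with 10 estimates below 0. The genes named from it were picked by p, and all stood above 0. They were the stress-induced mTORC1 inhibitor Sesn2 (0.88), the Myc antagonist Mxd4 (0.70) and Max (0.26), the shared partner of Myc and its antagonists. The activity of mTOR or Myc was not tested.

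**Figure D5:**
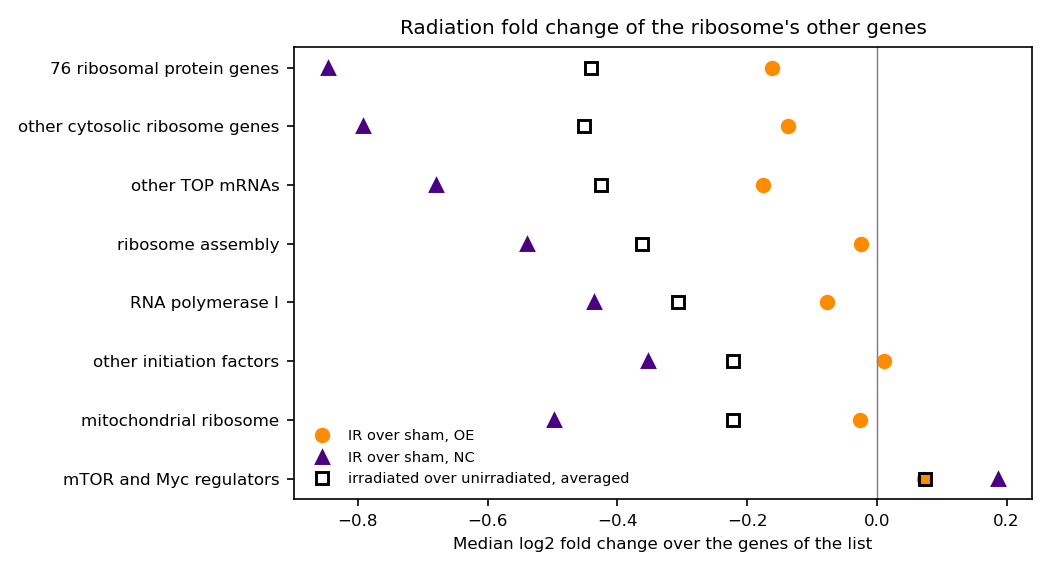
Median log2 fold change of each gene list (horizontal axis) for IR over sham in OE tumours (orange), IR over sham in NC tumours (purple) and irradiated over unirradiated tumours on average (open squares). The ribosomal protein genes have medians of -0.16, -0.85 and -0.44, and the translation and ribosome assembly lists lie below 0 on average. The mTOR and Myc regulators have 0.07 on average. That list includes inhibitors, so its median gives no direction for the pathways.

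Levels within the family were compared per length, taken as the median over a gene's principal transcripts. The highest were Rplp1 (median 1880 CPM per kb in irradiated and 2387 in unirradiated tumours), Rpl41 (1581 and 2375 CPM per kb) and Rps15 (1512 and 2180 CPM per kb), where the unirradiated median over the family was 842 CPM per kb. The lowest were Rpl21 (12.72 CPM per kb in irradiated and 17.43 in unirradiated tumours) and Rpl29 (36.28 and 42.01 CPM per kb). RefSeq names 15 pseudogenes after Rpl21 and 5 after Rpl29. In all 62 of the 76 genes have a named pseudogene, and 8 have pseudogene rows in the table, 12 rows in all, among them Rpl34-ps1 with 2637 to 5936 reads a tumour. How reads that match several copies were counted is not given in the sources used here, so the levels of these genes, and the differences between them, are uncertain, and equal amounts of protein cannot be read from them.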

How the data were processed

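The deposited table holds the authors' raw read counts per gene, with no normalization. All values were checked to be non-negative and the gene symbols to be unique. Per the submitters' processing notes, fastp, HISAT2 and HTSeq were used with mouse build mm10; versions, annotation and strand setting are not given in the sources used here. Per the labels' protocols, total RNA was extracted with TRIzol and libraries were made with a VAHTS Universal V5 kit. Reads carry no molecular identifiers, so replicate tumours set the precision.

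Counts were fitted with edgeR 4.0.16 in R 4.3.3 (TMM scaling, filterByExpr, quasi-likelihood F-tests) over all 24 libraries in 8 groups, with Benjamini-Hochberg adjustment over 16560 genes and a threshold of 0.05. The SE is the log2 fold change divided by the square root of F. Contrasts gave radiation on average and in each cell line with and without olaparib, the combination, olaparib, OE against NC, and 2 interactions; 1 further fit used the summed counts of the 76 genes as library size. DESeq2 1.42.0, limma 3.58.1 voom with sample weights, other scalings, no filter, an additive model, the written labels, the 16 tumours whose labels agree on radiation, 2-group fits and leaving out tumours were alternatives; leaving out 3 libraries of unlike composition together was chosen after seeing the data. The edgeR steps were tested on simulated data. Groups follow the coded identifier in the labels, and replicates are numbered in accession order. Promoters and gene positions are RefSeq's on GRCm38.p6 and transcript lengths GENCODE's. Named genes are the 10 lowest and 10 highest members for radiation plus 20 chosen for their roles, the called members (at most 3 lowest and 3 highest) or the 3 smallest p elsewhere, and up to 3 genes of each other list; further genes of a list are named where the list has few. The members and lists were chosen with earlier results of these data known, and the mitochondrial ribosome list was added after the data were seen. 1 gene of another list is not reported here.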

Additional observations from a re-analysis of the deposited data

How the results depend on the processing

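The averaged radiation result, 72 genes called, stayed between 68 and 73 under the other scalings, tests, filters and in 2 smaller sets of tumours (70 where both labels agree on radiation, 68 without the 3 libraries of unlike composition), and the lone exception was the written labels, with 0. Leaving out 1 tumour gave 65 to 73 genes for radiation on average, 7 to 11 for shares of the family, 0 to 76 for radiation in NC, 0 to 3 under olaparib in NC, 0 to 7 under olaparib in OE, 1 to 73 for the combination in NC and 0 to 13 in OE. With the written labels none was called for radiation in NC, under olaparib in OE or for the combination in either line. In fits on the 2 groups alone there were 0 for radiation in NC, 20 and 0 under olaparib in NC and OE, and 19 and 0 for the combination in NC and OE. DESeq2 called 2 under olaparib in NC and 4 for the combination in OE. With no filter both OE results had 0. Limma with sample weights called 34 for radiation in OE, 20 and 19 under olaparib in NC and OE, 11 for the combination in OE and 13 for OE against NC. Without the 3 libraries of unlike composition there were 0 for radiation in NC, 15 and 0 under olaparib in NC and OE, 35 and 0 for the combination in NC and OE, and 6 for OE against NC. The cause was not tested. The 33 ribosomal protein genes named for radiation on average kept their sign in the alternatives of that contrast; other named genes were not followed. No paired analysis was possible because the replicate numbers follow accession order and pair no tumours.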
